A study of Mus musculus with 3 samples.

Results

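The 10 genes described here are the insulin-like growth factor (IGF) ligands Igf1 and Igf2, their receptors Igf1r and Igf2r, and the IGF binding proteins Igfbp2, Igfbp3, Igfbp4, Igfbp5, Igfbp6 and Igfbp7. They were taken by symbol from the 32285 genes of the deposited count tables, and all 10 were found. The data were single-cell RNA counts of digested mouse muscle, and each value below is a sum of unique molecular identifiers (UMIs, 1 per captured RNA molecule) over the cells of one class in one library, scaled to the class total (CPM, counts per 1e6 UMIs). Intervals are exact 95% intervals for counting error only.

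The study asked how age and the cytokine Meteorin-like affect the repair of injured muscle. Tibialis anterior muscles of C57/BL6J mice were damaged by injection of BaCl2, a salt that kills muscle fibres, and were collected after 4 days. The 3 libraries came from young mice given PBS (young PBS), old mice given PBS (old PBS) and old mice given recombinant Meteorin-like protein by intramuscular injection (old rMETRNL). Each library pooled triplicate samples of its group, so every group was 1 library, no uninjured muscle was included, and the labels give no ages in months. Nothing could therefore be tested between groups, and the ratios below compare libraries. Wherever 3 values are listed they run in the order young PBS, then old PBS, then old rMETRNL. The age ratio is old PBS divided by young PBS, the treatment ratio is old rMETRNL divided by old PBS, and both use the old PBS library, so a value peculiar to that library moves them in opposite directions.

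The deposited tables held 12168, 12568 and 14012 cell barcodes, and 10293, 9946 and 11353 were kept. Median depth over kept cells was 15092, 13676 and 14586 UMIs. Libraries shared 58 to 80 barcodes in each pair, at most 0.657% of the smaller library. Cells were grouped by clustering without the 10 genes and were named from marker genes, and 8 classes had at least 50 cells in every library. Endothelial-like cells were shallower in old PBS (median 4015.5 UMIs) than in young PBS (11169.5) and old rMETRNL (7352.5). The pericyte/smooth muscle-like class held 109 to 138 cells per library. In it the 8 endothelial markers stood at a median of 56.6%, 32.9% and 44.55% of their level in endothelial-like cells, the same order as its Igfbp3 and Igfbp7. Its median depth was 9315, 5777 and 7354 UMIs, and the 8 mature fibre markers summed to 17.1, 513 and 49.2 CPM and the 6 erythroid markers to 15.3, 48.4 and 34.1 CPM. At most 2 markers of each of these lists were at 0, and the part of depth and of these cell types in its values was not tested. Its age ratios of Igf2, Igfbp4 and Igfbp5 all fell under 1.5-fold with doublet calls kept (1.325, 1.224 and 1.186). Tenocyte-like cells held the 10 FAP markers at a median of 101.9%, 56.7% and 104.7% of their FAP-like level, while the 8 tenocyte markers in FAP-like cells stood at a median of 1.04%, 0.957% and 1.375% of their tenocyte-like level. The part of FAP cells in the tenocyte-like values was not tested.

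IGF-1 and IGF-2 are small secreted growth factors that signal through the receptor tyrosine kinase IGF1R, while the mannose 6-phosphate receptor IGF2R takes up IGF-2 for degradation. In regenerating muscle IGF-1 is known as a signal for myoblast proliferation, differentiation and fibre growth, and macrophages and fibroblasts are known sources. IGFBP2 to IGFBP6 bind IGFs with high affinity and either keep them from the receptor or hold them near the cell, and IGFBP7 is a more distant relative with low affinity for IGFs and high abundance around vessels.

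Igf1 (ENSMUSG00000020053, chr10:87858265-87937042, plus strand, GRCm38) was carried by 3 classes. Tenocyte-like cells had 672.1, 546.9 and 521.1 CPM. Fibro-adipogenic progenitor (FAP)-like cells, the matrix-producing fibroblasts of muscle, had 369.1, 362.0 and 295.0 CPM. Macrophage/monocyte-like cells had 240.5, 266.2 and 256.3 CPM. These ranges did not overlap, and they were followed by endothelial-like cells at 56.7 to 72.0 CPM. MuSC/myoblast-like cells (muscle stem cells and their progeny) came last with 3.31 to 5.52 CPM, which was 0.913% to 1.77% of the FAP-like level beside a median of 0.544% to 0.687% for the 10 FAP markers in the same cells. Macrophage/monocyte-like cells were the most numerous class, and they held 51.8%, 65.6% and 62.3% of all Igf1 UMIs in kept cells. FAP-like cells held 37.7%, 27.6% and 28.5%. Counted per cell after thinning each cell to 2000 UMIs, 40.3%, 42.4% and 35.2% of FAP-like cells had an Igf1 UMI (84.6%, 83.0% and 76.5% unthinned, at median depths of 26090.5, 21844.5 and 24645 UMIs). The thinned share of macrophage/monocyte-like cells was 29.4%, 32.7% and 30.6% (67.1%, 70.3% and 66.9% unthinned, at median depths of 14230 to 14944 UMIs). Thinning left out 1, 15 and 17 FAP-like and 46, 90 and 85 macrophage/monocyte-like cells. In dendritic-like cells, at median depths of 10571 to 11829 UMIs, the thinned share was 1.43% to 1.79%.

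**Figure D1:**
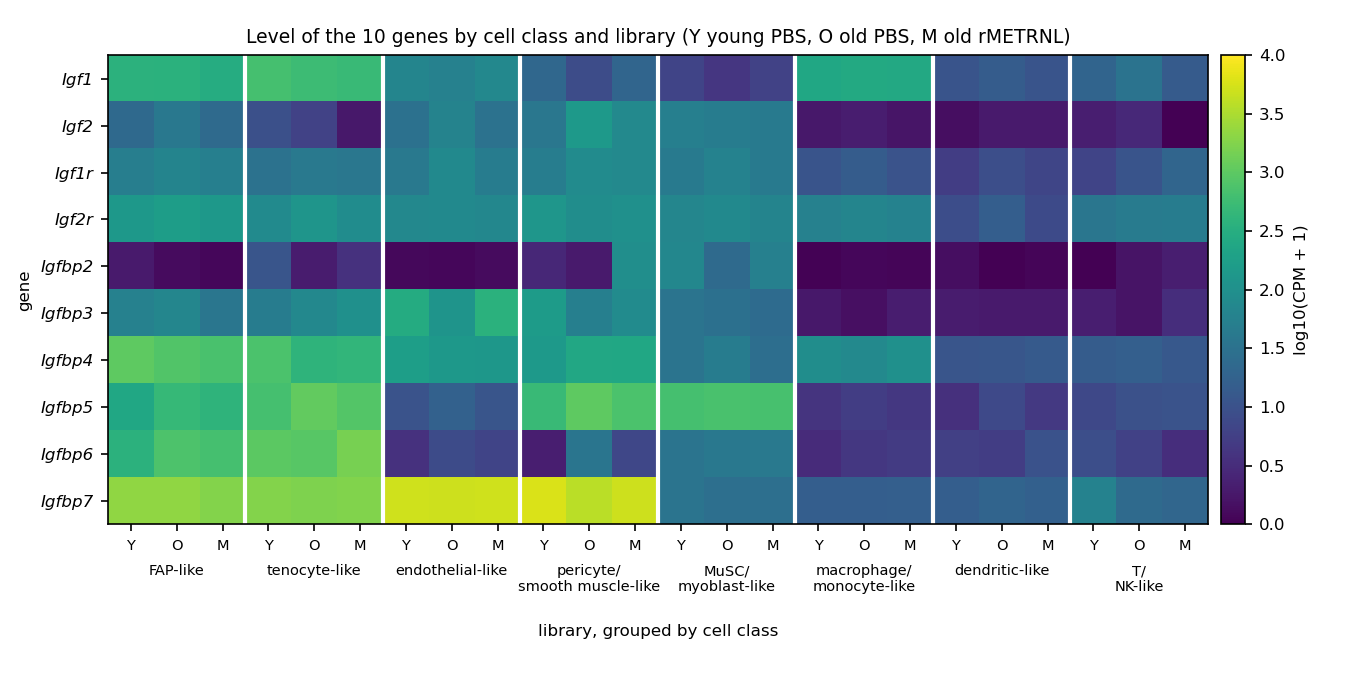
Colour gives log10(CPM + 1) of each gene (rows) in 8 cell classes, each in young PBS (Y), old PBS (O) and old rMETRNL (M). Igf1 is brightest in tenocyte-like cells, then in FAP-like and in macrophage/monocyte-like cells, Igfbp7 in endothelial-like and pericyte/smooth muscle-like cells, and Igfbp2 in MuSC/myoblast-like cells apart from 1 pericyte/smooth muscle-like value that came from 2 cells.

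Between libraries Igf1 moved little. In FAP-like cells the age ratio was 0.981 (0.957 to 1.005), or 1.014 with median-of-ratios size factors, and the treatment ratio 0.815 (0.794 to 0.836), and old rMETRNL stood at 0.799 of young PBS (0.781 to 0.818). Macrophage/monocyte-like cells had an age ratio of 1.11 (1.09 to 1.13) and, by treatment, 0.963 (0.947 to 0.979). In tenocyte-like cells they were 0.814 (0.758 to 0.874) and 0.953 (0.884 to 1.03). None of these reached 1.5-fold. The 2 values of Igf1 past 1.5-fold in MuSC/myoblast-like cells, 0.599 by age and 1.58 by treatment, had intervals that included 1, and the age ratio was 1.23 under a stricter cell filter.

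Within FAP-like cells Igf1 differed more between sub-clusters than between libraries. The sub-cluster led by Cxcl13 and Hspb1 had 643, 582 and 550 CPM, and the one led by Myoc and Clu, which also held the Inmt-state markers, had 627, 484 and 412 CPM. The sub-cluster led by Acta2, Tpm2, Tnc and Inhba, genes of contractile and matrix-remodelling fibroblasts, had 88.3, 136 and 92.0 CPM, and cycling cells had 115, 165 and 96.8 CPM. Of 10 sub-clusters the age ratio lay above 1 beyond its interval in 5 and below 1 in 3. The lowest was 0.628 (0.592 to 0.666) in the sub-cluster led by Cxcl5, a neutrophil chemokine, and one of the highest was 1.53 (1.38 to 1.70) in the sub-cluster led by Pi16, which marks adventitial progenitors. The treatment ratio lay below 1 in 5 of the 9 sub-clusters with at least 50 UMIs, down to 0.516 (0.469 to 0.567) in Pi16-led cells, and above 1 in 1, the Cxcl5-led cells (1.20, 1.13 to 1.29). With every library given the same sub-cluster make-up, the class ratios were 0.945 by age and 0.897 by treatment.

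In macrophage/monocyte-like cells the level of Igf1 was lowest in the sub-cluster led by Ly6c2 and Plac8, markers of inflammatory monocytes, with 38.5, 36.7 and 26.7 CPM. The highest level was in the small sub-cluster led by Cd209f and Pla2g2d, which also held the resident markers Lyve1, Cd163 and Cbr2, with 652, 532 and 611 CPM. The same markers were at least 3-fold higher in the Ccl8-led sub-cluster, with 438, 332 and 381 CPM of Igf1, and in the Hbegf-led one, with 299.5, 265.8 and 298.5 CPM. The sub-cluster led by Atp6v0d2 and Mfge8, which held the lipid-associated markers Spp1 and Gpnmb, had 335, 381 and 350 CPM. It gave 27.3%, 43.2% and 36.0% of the class's Igf1 UMIs, with 19.6%, 30.2% and 26.4% of the class's UMIs in all. No sub-cluster of 11 passed 1.5-fold in Igf1 by age or by treatment.

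Igf2 (ENSMUSG00000048583, chr7:142650766-142666816, minus strand) was found in fewer cells. Its locus overlaps the antisense gene Igf2os. The sources used here do not state how counting used strand, and reads of that pair were not checked. FAP-like cells had 22.1, 38.9 and 23.1 CPM, endothelial-like cells 29.6, 59.5 and 31.8 CPM, and pericyte/smooth muscle-like cells 37.8, 142 and 76.5 CPM. In each of these 3 classes the old PBS library was the highest. MuSC/myoblast-like cells had 51.7, 46.3 and 42.6 CPM, with no such peak. The range of FAP-like cells lay below that of MuSC/myoblast-like cells and above that of tenocyte-like cells (0.814 to 8.52 CPM), and the other ranges among these 4 classes overlapped. The few myocyte-like cells, which express the fusion and early sarcomere genes, had 135, 214 and 164 CPM from 79, 23 and 43 cells.

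For Igf2 the age ratio was 1.76 (1.62 to 1.92) in FAP-like cells. It was 2.01 (1.71 to 2.38) in endothelial-like cells, and pericyte/smooth muscle-like cells had 3.77 (2.80 to 5.13). Treatment ratios were 0.593 (0.544 to 0.645), 0.534 (0.456 to 0.625) and 0.537 (0.413 to 0.695) in the same order. With every library given the same sub-cluster make-up, FAP-like cells had 1.39 by age and 0.743 by treatment, and endothelial-like cells 1.57 and 0.874. In FAP-like cells these sums rested on few cells. The 5 cells with the most Igf2 held 42.1% of its UMIs in the old PBS library and 50.7% in the old rMETRNL one. The sub-cluster led by Myoc and Clu had 10.4, 203 and 301 CPM, and Pi16-led cells had 21.4, 98.3 and 22.5 CPM. Of the 8 sub-clusters with at least 50 UMIs, the age ratio lay above 1 beyond its interval in 3 (Myoc-led, Pi16-led and Acta2-led) and below 1 in 4, all 7 of them past 1.5-fold. The 4 were led by Cxcl13 (0.409), Cxcl5 (0.492), Cxcl10 (0.621) and Swt1 (0.635), and the Myoc-led ratio was 19.5 (11.7 to 35.2). Without the cell with the most UMIs in each library the class ratio by age was 1.58.

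In endothelial-like cells Igf2 was almost all in 1 sub-cluster. That sub-cluster was led by Mgp, Cytl1 and Gkn3 and held the 3 arterial markers Gja5, Sema3g and Hey1, each at least 2.98 times its level in the other endothelial-like cells. It had 413, 687 and 599 CPM of Igf2 and gave 84.3%, 85.9% and 83.5% of the class's Igf2 UMIs from 44, 63 and 48 cells. Within it the age ratio was 1.66 (1.39 to 1.99) and the treatment ratio 0.872 (0.735 to 1.03). The other sub-clusters with at least 5 cells per library had at most 30.5 CPM. Igf1 was placed differently: the sub-cluster led by Aebp1 and the one led by Csf3 and Selp, the latter with the venous markers, had 129 to 202 CPM, and the arterial-marker sub-cluster had 5.76 to 13.9 CPM.

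**Figure D2:**
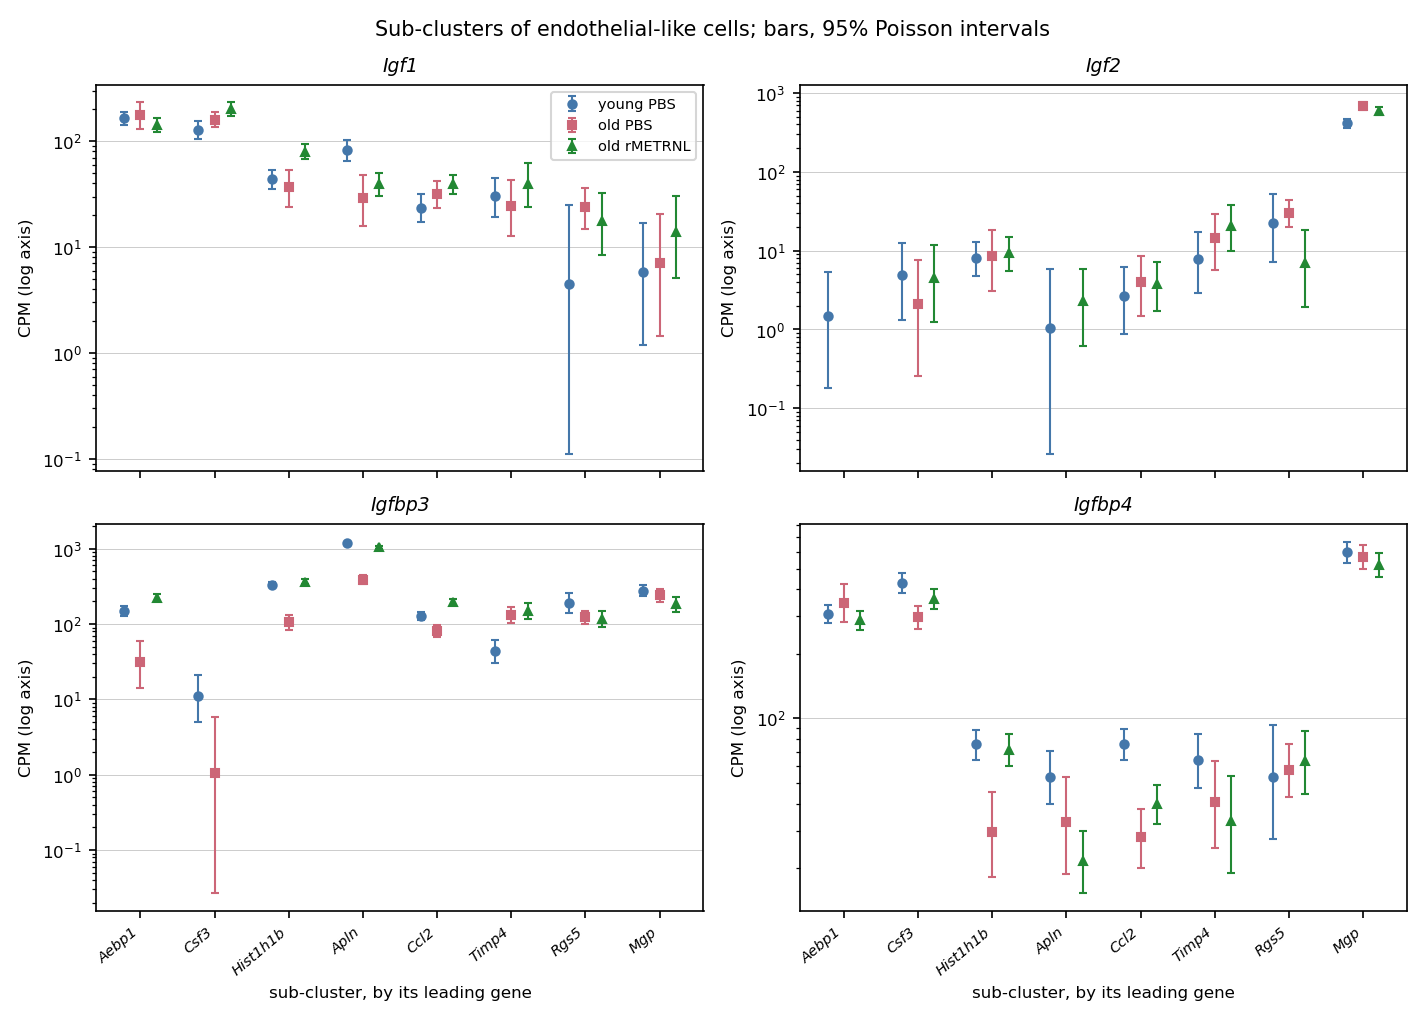
CPM on a log axis of Igf1, Igf2, Igfbp3 and Igfbp4 in sub-clusters of endothelial-like cells, named by the leading gene, with 95% Poisson intervals, and values of 0 not drawn. Igf2 stands at 413 to 687 CPM in the Mgp-led sub-cluster, and Igfbp3 of old PBS lies below both other libraries in the Apln-led, Aebp1-led and Hist1h1b-led sub-clusters.

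Igf1r (ENSMUSG00000005533, chr7:67952827-68233668, plus strand), the signalling receptor, was spread over the non-immune classes. FAP-like cells had 50.9, 62.7 and 52.0 CPM, MuSC/myoblast-like cells 44.2, 58.3 and 43.2 CPM, and endothelial-like cells 40.9, 78.3 and 47.4 CPM. Pericyte/smooth muscle-like cells had 47.8, 83.8 and 74.2 CPM, and these 4 classes overlapped. Macrophage/monocyte-like, T/NK-like and dendritic-like cells had 4.38 to 18.8 CPM. Old PBS was the highest library in each of the FAP-like, MuSC/myoblast-like, endothelial-like, pericyte/smooth muscle-like and macrophage/monocyte-like classes. The 8 mature fibre markers were also highest in old PBS in each of these classes. They summed to 15.9, 70.4 and 35.6 CPM in FAP-like, 45.6, 106.5 and 55.9 CPM in macrophage/monocyte-like and 319.5, 341.7 and 315.1 CPM in MuSC/myoblast-like cells. What they mean for Igf1r was not tested. The age ratio passed 1.5-fold in endothelial-like cells (1.91, 1.66 to 2.21), in pericyte/smooth muscle-like cells (1.75, 1.28 to 2.40) and, from 31 and 35 UMIs, in dendritic-like cells (1.835, 1.10 to 3.08). It was 1.23 (1.16 to 1.31) in FAP-like, 1.35 (1.24 to 1.47) in macrophage/monocyte-like and 1.32 (1.14 to 1.53) in MuSC/myoblast-like cells. Of the 8 endothelial-like sub-clusters with at least 50 UMIs, the age ratio lay above 1 beyond its interval in 2 and below 1 in 0. The Rgs5-led sub-cluster had 106.6, 106.1 and 88.1 CPM of Igf1r, and it held 2.61%, 15.4% and 5.81% of the class's UMIs in all. Treatment ratios were 0.606 (0.531 to 0.691) in endothelial-like (0.690 with the same sub-cluster make-up), 0.829 (0.779 to 0.881) in FAP-like and 0.712 (0.655 to 0.772) in macrophage/monocyte-like cells. Old rMETRNL against young PBS was 1.02 (0.963 to 1.08) in FAP-like cells.

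Igf2r (ENSMUSG00000023830, chr17:12682406-12769664, minus strand), the uptake receptor, was highest in FAP-like cells at 134, 168 and 134 CPM, a range that overlapped that of no other class. Within young PBS, pericyte/smooth muscle-like cells were not separated from FAP-like cells. They had 126.8 CPM there, with an interval (110.4 to 144.9) that included the FAP-like value. Pericyte/smooth muscle-like, tenocyte-like, endothelial-like, MuSC/myoblast-like and macrophage/monocyte-like cells followed between 57.1 and 127 CPM, and dendritic-like cells were lowest with 7.77, 14.9 and 6.97 CPM. From 50 to 65 UMIs per library, the dendritic-like ratios were 1.92 (1.32 to 2.80) by age and 0.467 (0.316 to 0.685) by treatment, the latter 1.062 with doublet calls kept. FAP-like cells had ratios of 1.255 (1.21 to 1.30) by age and 0.798 (0.768 to 0.829) by treatment. Igf2r varied in macrophage/monocyte-like cells with state, from 99.6 to 112 CPM in the Atp6v0d2-led and 83.3 to 97.9 CPM in the cycling sub-cluster down to 0 to 10.1 CPM in the sub-cluster led by Ccl8 and Txnip. The class age ratio there was 1.16 (1.12 to 1.21), but it was 0.985 with every library given the same sub-cluster make-up.

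**Figure D3:**
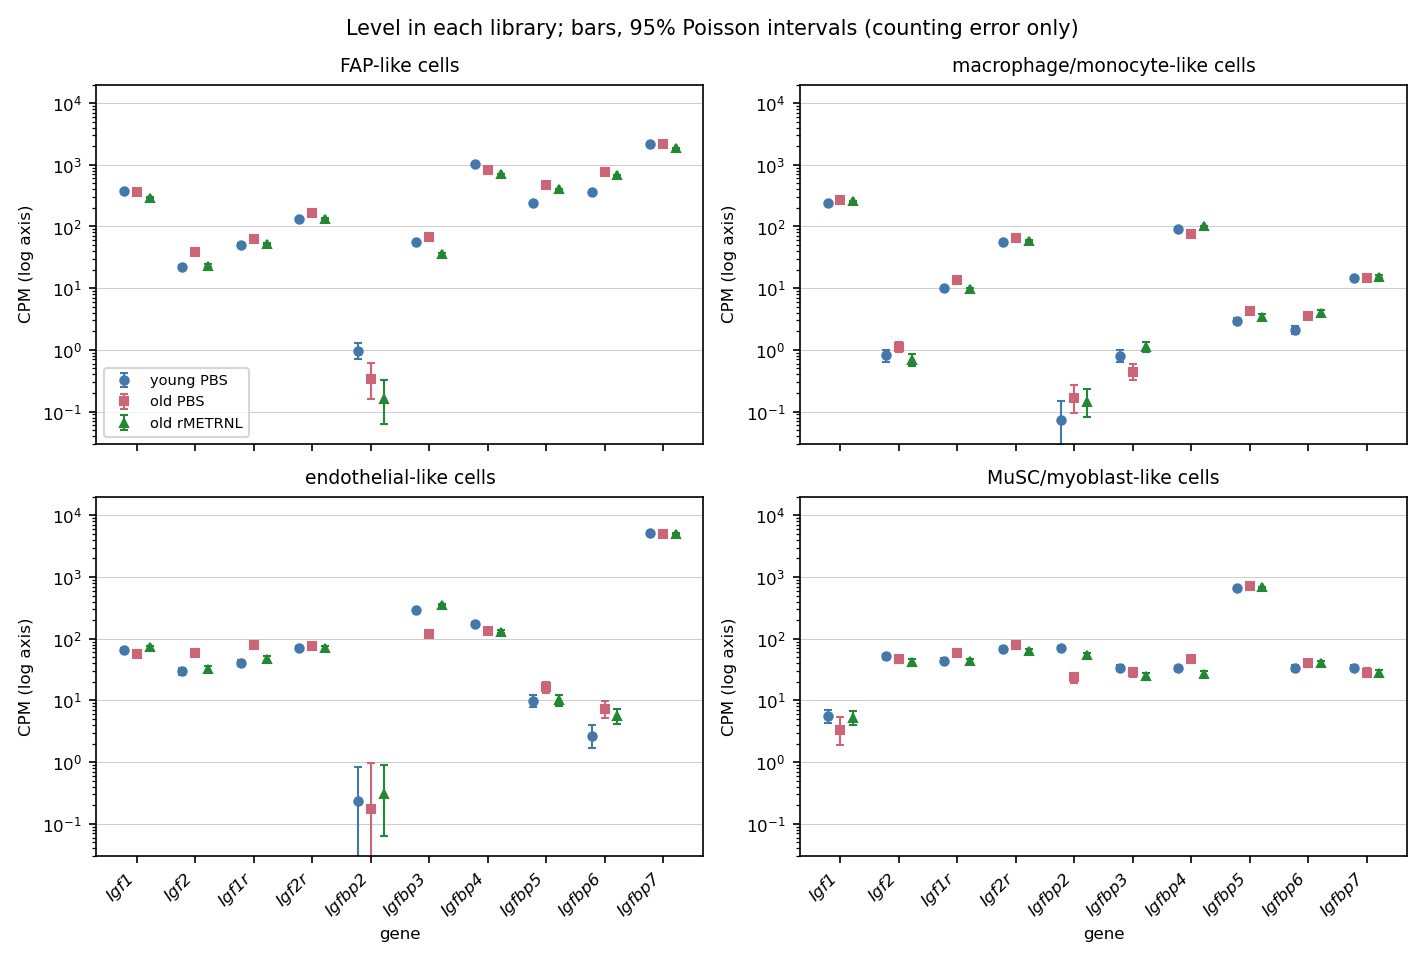
CPM on a log axis of the 10 genes in 4 cell classes, by library, with 95% Poisson intervals (counting error only). Igfbp5 and Igfbp6 of FAP-like cells are higher in both old libraries than in young PBS, and Igfbp3 of endothelial-like cells is lowest in old PBS.

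Igfbp5 (ENSMUSG00000026185, chr1:72857932-72874884, minus strand) and Igfbp6 (ENSMUSG00000023046, chr15:102144362-102149511, plus strand) were the members most raised in old FAP-like cells. IGFBP5 binds matrix and is known in differentiating muscle, and IGFBP6 prefers IGF-2. Igfbp5 in FAP-like cells was 241, 478 and 401 CPM, and Igfbp6 was 366, 751 and 671 CPM, so both old libraries lay above the young one. The 250 bases before each gene's RefSeq start (GRCm38.p6) are shown because the pair moved together there, at chr1:72874866-72875115 (minus strand) for Igfbp5 and chr15:102143936-102144185 (plus strand) for Igfbp6, 5′ to 3′.
Igfbp5: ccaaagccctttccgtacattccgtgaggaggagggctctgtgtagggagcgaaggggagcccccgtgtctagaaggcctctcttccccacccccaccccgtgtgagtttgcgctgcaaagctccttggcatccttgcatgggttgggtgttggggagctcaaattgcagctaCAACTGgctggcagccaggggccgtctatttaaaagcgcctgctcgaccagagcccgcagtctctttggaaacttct
Igfbp6: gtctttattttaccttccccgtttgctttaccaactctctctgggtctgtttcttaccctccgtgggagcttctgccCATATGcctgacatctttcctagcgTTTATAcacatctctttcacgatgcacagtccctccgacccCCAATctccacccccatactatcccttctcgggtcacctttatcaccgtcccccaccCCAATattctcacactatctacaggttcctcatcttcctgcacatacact
Capitals mark letters that match on either strand a TATA box (TATAAA, in 12.4% of 32851 promoters of this length), a CCAAT box (CCAAT, 33.8%), an E-box (CANNTG, 66.2%) or an AP-1 motif (TGANTCA, 6.75%). The Igfbp5 window held 1 E-box, and the Igfbp6 window held 1 TATA box, 2 CCAAT boxes and 1 E-box. These are matches of letters, not sites.

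The age ratio in FAP-like cells was 1.98 (1.93 to 2.03) for Igfbp5 and 2.05 (2.01 to 2.10) for Igfbp6. The treatment ratios were 0.840 (0.822 to 0.859) and 0.894 (0.878 to 0.909), the latter 1.005 in cells taken by a Pdgfra UMI without Ptprc, and old rMETRNL stood at 1.66 (1.62 to 1.70) and 1.84 (1.80 to 1.87) times young PBS. Both transcripts were concentrated in few sub-clusters. Pi16-led cells had 2255, 3307 and 2514 CPM of Igfbp5 and gave 54.0%, 65.1% and 65.0% of the class's Igfbp5 UMIs, with 5.78%, 9.40% and 10.4% of the class's UMIs in all. They had 2241, 2701 and 2663 CPM of Igfbp6. The Myoc-led cells had 1825, 2396 and 2929 CPM of Igfbp6, and the small Sfrp5-led sub-cluster (23, 23 and 9 cells) had 2464, 8461 and 5860 CPM. The Cxcl5-led, Cxcl13-led and Cxcl10-led cells had 158 to 379 CPM of Igfbp6.

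Igfbp6 was higher in old PBS than in young PBS, beyond the counting interval, in 9 of 10 FAP-like sub-clusters and past 1.5-fold in 6 of them. The exception was the sub-cluster led by Hmcn2 and Crispld2 (0.712, 0.643 to 0.789), which had 16 cells in young PBS. Igfbp5 was higher in 5 of the 10 and lower in 1. With every library given the same sub-cluster make-up the age ratios of the class were 1.39 for Igfbp5 and 1.43 for Igfbp6, below 1.5-fold. Elsewhere Igfbp5 had an age ratio of 1.65 (1.56 to 1.75) in tenocyte-like cells, with levels of 659, 1089 and 842 CPM (1.477 without the top cell of each library), and of 1.96 (1.79 to 2.14) in pericyte/smooth muscle-like cells. Igfbp6 in tenocyte-like cells was 968, 926 and 1494 CPM, a treatment ratio of 1.61 (1.53 to 1.70), or 1.496 as a mean of per-cell CPM. MuSC/myoblast-like cells held Igfbp5 at 667, 707 and 675 CPM, an age ratio of 1.06 (1.02 to 1.10) that was 0.801 under a stricter cell filter, and tenocyte-like, pericyte/smooth muscle-like and MuSC/myoblast-like cells overlapped in Igfbp5. Glial-like cells, only 23, 65 and 49 in number, had 1177, 1306 and 1735 CPM of Igfbp5, where 1 cell gave 55.6% of the old rMETRNL UMIs, and their Igfbp6 in old PBS (447 CPM) came to 85.6% from 1 cell.

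**Figure D4:**
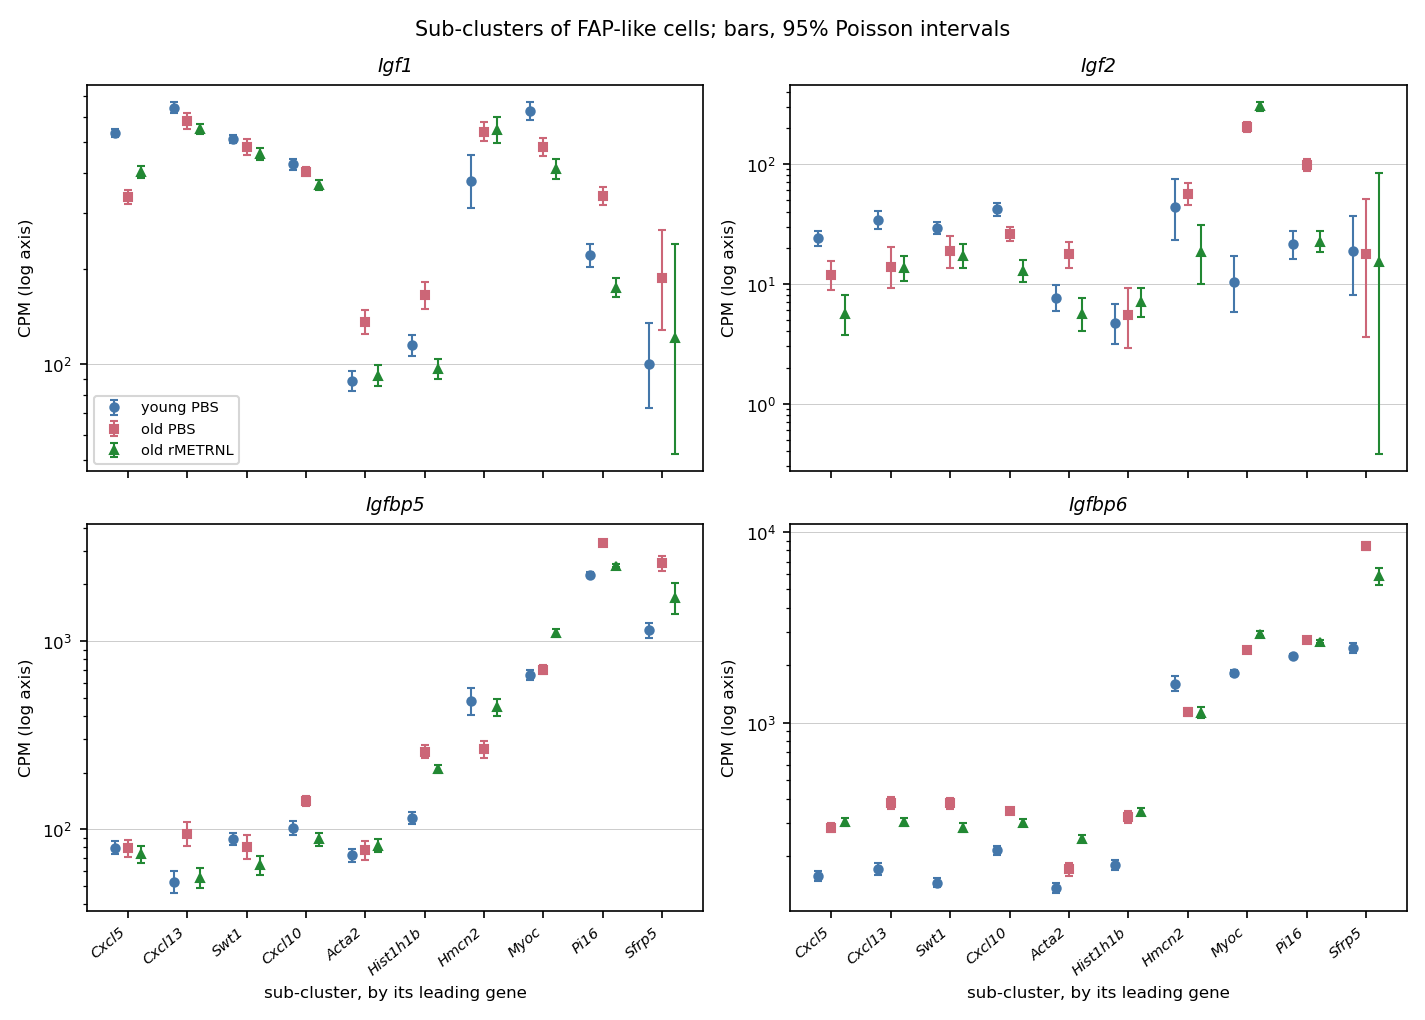
CPM on a log axis of Igf1, Igf2, Igfbp5 and Igfbp6 in sub-clusters of FAP-like cells, named by the leading gene, with 95% Poisson intervals. Igf1 is lowest in the Acta2-led, cycling and Sfrp5-led sub-clusters, while Igfbp5 is highest in the Pi16-led and Sfrp5-led ones and Igfbp6 in those and the Myoc-led one.

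Igfbp3 (ENSMUSG00000020427, chr11:7206086-7213923, minus strand), the main IGF carrier of blood, was the member whose level in endothelial-like cells differed most between old PBS and old rMETRNL. Endothelial-like cells had 289, 118 and 358 CPM, with old PBS the lowest. The age ratio was 0.407 (0.3735 to 0.444), the treatment ratio 3.04 (2.80 to 3.31), and old rMETRNL was 1.24 (1.18 to 1.30) times young PBS. These sums rested on few cells, since the 5 cells with the most Igfbp3 held 28.4%, 25.2% and 30.4% of its UMIs. The level was highest in the sub-cluster led by Apln, Gal and Pgf, of which Apln is known from the tips of growing vessels, with 1176, 389 and 1041 CPM from 41, 29 and 68 cells. Cycling endothelial-like cells had 332, 106 and 365 CPM and the Aebp1-led cells 150, 31.2 and 225 CPM. Of the 7 sub-clusters with at least 50 UMIs, the age ratio lay below 1 beyond its interval in 5 and above 1 in 1, the Timp4-led cells (2.99, 1.95 to 4.68). The treatment ratio lay above 1 in 4 and below 1 in 0. With every library given the same sub-cluster make-up the treatment ratio was 2.41, and as means of per-cell CPM the age and treatment ratios were 0.622 and 1.565, which together leave old rMETRNL slightly below young PBS. In the Apln-led and Mgp-led sub-clusters, too, old rMETRNL lay below young PBS, so no direction is read between these libraries.

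In FAP-like cells Igfbp3 took another course, with 56.3, 67.3 and 35.5 CPM. Its treatment ratio was 0.528 (0.494 to 0.564) and its age ratio 1.20 (1.13 to 1.27), and 0.632 and 1.04 with the same sub-cluster make-up. The Myoc-led cells were highest with 153, 354 and 150 CPM. In tenocyte-like cells it was 47.6, 73.7 and 103 CPM, but the age ratio of 1.55 (1.24 to 1.93) was 0.753 as a mean of per-cell CPM, and 5 cells held 74.7% of the old PBS and 76.7% of the old rMETRNL UMIs. In pericyte/smooth muscle-like cells it was 155, 52.1 and 82.6 CPM, where 1 cell held 58.4% of the UMIs of young PBS, and the age ratio was 0.337 with that cell and 0.621 without the top cell of each library. At a coarser clustering it was 1.24, and the treatment ratio of 1.58 was 0.526 with doublet calls kept. In macrophage/monocyte-like cells it was 0.804, 0.444 and 1.13 CPM, which is 0.279% to 0.378% of the endothelial-like level, beside a median of 0.216% to 0.2765% for the 8 endothelial markers in the same cells. That level is read as background, as are the age ratio of 0.552 and the treatment ratio of 2.54 there.

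Igfbp4 (ENSMUSG00000017493, chr11:99041244-99054392, plus strand), whose cleavage by the protease PAPP-A frees IGF, was high in FAP-like cells at 1016, 810 and 710.5 CPM, a range that overlapped that of tenocyte-like cells. FAP-like cells had ratios of 0.797 (0.785 to 0.809) by age and 0.877 (0.863 to 0.892) by treatment. Of 10 sub-clusters the age ratio lay below 1 beyond its interval in 5 and above in 3, while the treatment ratio lay above 1 in 5 and below in 4, so 4 of 10 shared the direction of the class by treatment. Tenocyte-like cells had 727, 405 and 435 CPM, an age ratio of 0.557 (0.514 to 0.602). Macrophage/monocyte-like cells had 90.2, 75.0 and 100.3 CPM, and their treatment ratio was 1.34 (1.30 to 1.38), above 1 beyond the interval in 6 of 11 sub-clusters and below in 1. Among these the levels ran from 7.59 to 11.1 CPM in the F10-led cells to 316 to 372 CPM in the sub-cluster led by Ccl8 and Clec10a. In MuSC/myoblast-like cells Igfbp4 was 33.3, 46.7 and 26.5 CPM, a treatment ratio of 0.567 (0.476 to 0.676), or 0.752 with the same sub-cluster make-up.

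Igfbp2 (ENSMUSG00000039323, chr1:72824503-72852474, plus strand) lies next to Igfbp5 and was highest in myogenic cells. MuSC/myoblast-like cells had 70.3, 23.6 and 53.8 CPM, low in old PBS, while FAP-like and endothelial-like cells had at most 0.977 CPM. In the few myocyte-like cells (79, 23 and 43) old PBS was not the lowest, with 51.7, 48.0 and 42.4 CPM of Igfbp2. MuSC/myoblast-like cells held 70.1%, 51.6% and 69.7% of all its UMIs in kept cells. Its age ratio there was 0.335 (0.273 to 0.408) and its treatment ratio 2.28 (1.87 to 2.81), from 372, 174 and 371 cells, and old rMETRNL stood at 0.765 (0.689 to 0.849) of young PBS. With the same sub-cluster make-up the ratios were 0.416 and 1.67. The 8 myocyte markers in this class summed to 323, 163 and 268 CPM, also lowest in old PBS. The 10 FAP markers were highest in old PBS (1202, 1354 and 1050 CPM), and the part of both lists in the Igfbp2 ratios was not tested. In the sub-cluster led by Hist1h1b, a histone gene of S phase, the levels were 93.3, 22.0 and 75.7 CPM, and in the one led by Has2 and Dynap 97.5, 74.6 and 55.4 CPM. The thinned share of MuSC/myoblast-like cells with an Igfbp2 UMI was 7.71% (5.15% to 11.0%), 4.27% (1.73% to 8.60%) and 8.55% (5.84% to 12.0%), against 38.4%, 20.7% and 41.5% unthinned at median depths of 26636.5, 24843.5 and 29148 UMIs, so after thinning, which left out 22, 10 and 20 shallower cells, the share in old PBS was not separated from the others. The 122 UMIs in pericyte/smooth muscle-like cells of old rMETRNL (92.4 CPM, against 1.77 and 0.931) came from 2 cells, 1 of them with 78.7%.

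Igfbp7 (ENSMUSG00000036256, chr5:77349240-77408041, minus strand) had its highest levels in endothelial-like and pericyte/smooth muscle-like cells, but FAP-like cells held the most of its UMIs. By count, FAP-like cells held 99867, 64680 and 81228 of the 168784, 106449 and 152612 Igfbp7 UMIs in kept cells. The endothelial-like counts were 43867, 28033 and 49376 UMIs. Endothelial-like cells had 5084, 4889 and 5057 CPM and pericyte/smooth muscle-like cells 5889, 3823 and 4874 CPM, and these ranges overlapped. FAP-like cells had 2167, 2157 and 1842 CPM and tenocyte-like cells 1674 to 1795 CPM, while the remaining 4 classes had 14.4 to 58.9 CPM. In endothelial-like cells the age ratio was 0.962 (0.947 to 0.976), and it was 1.062 with every library given the same sub-cluster make-up, so no direction is read. There it varied between sub-clusters, from 724 to 1461 CPM in the arterial-marker sub-cluster to 6548 to 7065 CPM in the one led by Ccl2 and Ifit2. In FAP-like cells the treatment ratio was 0.854 (0.845 to 0.863), below 1 in 8 of 10 sub-clusters.

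**Figure D5:**
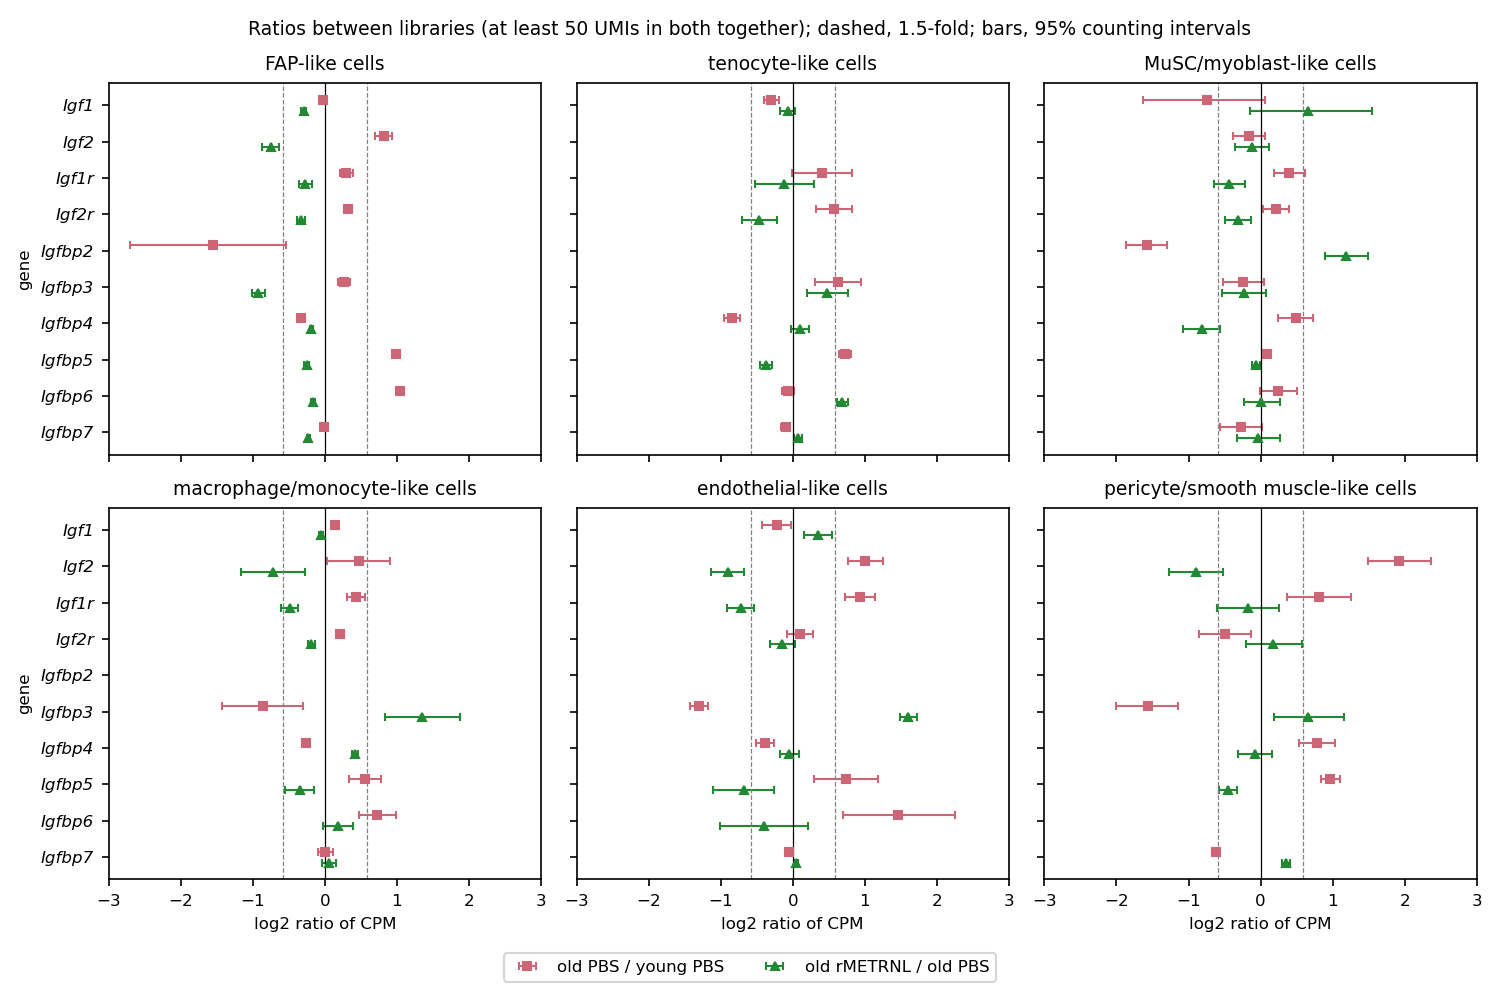
Points give log2 ratios of CPM between libraries for genes with at least 50 UMIs in both libraries together, in 6 cell classes, with 95% counting intervals and dashed lines at 1.5-fold. Where a square (old PBS over young PBS) lies far to one side, the triangle (old rMETRNL over old PBS) mostly lies on the other, and both use the old PBS library. The Igfbp2 value in pericyte/smooth muscle-like cells lies beyond the axis.

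Counted by class, the members past 1.5-fold were set beside the share of all genes with at least 50 UMIs that passed in the same comparison. In FAP-like cells 4 of 10 members passed by age (Igf2, Igfbp5 and Igfbp6 higher, Igfbp2 lower, the last from 45 and 10 UMIs and at 0.835 with doublet calls kept) where 13.2% of all genes did. With the same sub-cluster make-up in every library the count was 1, where 8.53% of all genes passed, and Igf2, Igfbp5 and Igfbp6 were not past 1.5-fold. By treatment 2 of 9 passed, Igf2 and Igfbp3, both lower, beside 8.8% of all genes, and 1 with the same sub-cluster make-up, Igfbp3, beside 5.36%. In endothelial-like cells 5 of 9 passed by age (16.8% of all genes) and 4 of 9 by treatment (12.5%). Igf2, Igf1r and Igfbp5 were high and Igfbp3 was low in old PBS in both of these comparisons. Summed markers of other cell types were also highest in old PBS in endothelial-like cells, with 196, 591 and 381 CPM for the 8 pericyte/smooth muscle markers (11162 to 14593 CPM in their own class), 15.4, 209 and 46.5 CPM for the 8 mature fibre markers and 25.9, 185 and 40.4 CPM for the 6 erythroid markers. None of the pericyte/smooth muscle markers was at 0 in any library, at most 1 of the fibre and 2 of the erythroid markers were, and their part in these ratios was not tested. The other member past 1.5-fold by age was Igfbp6 (2.67, 7.32 and 5.53 CPM, from 23, 42 and 54 UMIs). It stood at 0.729% to 0.975% of its FAP-like level, beside a median of 0.545% to 0.848% for the FAP markers, and is read as background. Igfbp5 there, from 84 to 99 UMIs, had ratios of 1.17 by age and 0.763 by treatment with the same sub-cluster make-up. In MuSC/myoblast-like cells 2 of 10 passed by age (9.08%) and 3 of 10 by treatment (7.79%), and in tenocyte-like cells 3 of 8 (12.7%) and 1 of 8 (8.93%). In macrophage/monocyte-like cells 2 of 9 passed by age (11.7%) and 2 of 9 by treatment (8.4%), and all 3 genes concerned, Igf2, Igfbp3 and Igfbp6, were at 4.00 CPM or less. Of these Igfbp6 was at 0.469% to 0.596% of its FAP-like level, beside a median of 0.384% to 0.430% for the FAP markers, and is read as background. In pericyte/smooth muscle-like cells 6 of 7 passed by age, where 25.4% of all genes did, and 3 of 8 by treatment (11.9%). Dendritic-like cells had 2 of 6 by age (13.4%) and 3 of 7 by treatment (10%). T/NK-like cells had 2 of 3 by age (12.8%) and 1 of 3 by treatment (11.9%), and the Igf1 and Igfbp7 sums there were 57.7% and 74.8% from 1 cell in their higher library. Median log2 ratios over the members tested were 0.28 by age and -0.27 by treatment in FAP-like cells, beside -0.05 and 0.02 over all genes tested. Old rMETRNL against young PBS had fewer than the age comparison in 6 of 8 classes. There were 4 of 10 in FAP-like cells (7.16% of all genes), 1 of 9 in endothelial-like cells (6.27%), the same Igfbp6, and 0 of 10 in MuSC/myoblast-like cells (4%). Macrophage/monocyte-like cells had 1 of 9 (5.37%), dendritic-like cells 1 of 6 (5.99%), T/NK-like cells 1 of 2 (11.1%), pericyte/smooth muscle-like cells 5 of 9 (16.4%) and tenocyte-like cells 4 of 9 (8.74%). Past 2-fold by age and by treatment, FAP-like cells had 2 and 0 members (3.92% and 2.13% of all genes) and macrophage/monocyte-like cells 0 and 1 (3.44% and 1.86%). Endothelial-like cells had 3 and 1 past 2-fold (4.8% and 2.86%), and MuSC/myoblast-like cells 1 and 1 (1.73% and 1.43%).

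Around the 10 genes, 47 others of the same pathway were counted, among them the insulin receptor and adaptors, the PI3K-AKT-mTOR chain, proteases that cut the binding proteins, other partners and the growth hormone axis. Of the 43 with enough UMIs in FAP-like cells, 2 were past 1.5-fold higher and 2 lower by age, where 13.2% of all genes passed, and 1 was higher by treatment, where 8.8% did. Both shares of the pathway genes were below those of all genes. By age, endothelial-like cells had 9 of 37 (16.8% of all genes), tenocyte-like cells 7 of 35 (12.7%) and T/NK-like cells 6 of 24 (12.8%), all above the share of all genes. Pericyte/smooth muscle-like cells had 6 of 26 (25.4%), dendritic-like cells 2 of 30 (13.4%) and MuSC/myoblast-like cells 2 of 39 (9.08%), all below it. By treatment there were 7 of 37 (12.5%), 4 of 36 (8.93%), 4 of 22 (11.9%), 2 of 26 (11.9%), 3 of 30 (10%) and 4 of 39 (7.79%) in the same order. H19, the imprinted RNA next to Igf2, was at 436, 286 and 222.5 CPM in FAP-like cells (age ratio 0.655, 0.639 to 0.672). It was also past 1.5-fold lower by age in MuSC/myoblast-like and tenocyte-like cells, but past 1.5-fold higher in endothelial-like cells. In FAP-like cells Stc1, an inhibitor of the PAPP-A proteases, was at 2.71, 1.001 and 1.84 CPM (age ratio 0.369, 0.239 to 0.553), and Pappa2, such a protease, at 0.608, 1.501 and 1.63 CPM (age ratio 2.47, 1.51 to 4.11). Pik3cb, a PI3-kinase subunit, had an age ratio of 1.58 whose interval (0.971 to 2.57) included 1. All 20 genes of the PI3K-AKT-mTOR chain were measured in these cells, and Pik3cb was the 1 past 1.5-fold by age. In macrophage/monocyte-like cells 2 of 38 were higher by age, the adaptor Irs2 from 91.1 to 141 CPM (1.55, 1.51 to 1.59) and the kinase Pdpk1 from 35.2 to 54.5 CPM (1.55, 1.48 to 1.62), and 0 passed by treatment, below the 11.7% and 8.4% of all genes.

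Genes whose log2(CPM + 1) over the 24 class-by-library values ran most like a member were, with Pearson's r as a description, Gas6 (0.926) for Igf1, Zmynd11 (0.933) for Igf2, Rbm24 (0.858) for Igfbp2, Gja1 (0.981) for Igfbp3, Selenom (0.970) for Igfbp4, Arhgap42 (0.982) for Igfbp5, Serpinf1 (0.974) for Igfbp6 and Ebf1 (0.986) for Igfbp7. These were taken among 6065 genes, and the values share libraries, so no p is given. Next by r came Il11ra1 (0.919) and Naglu (0.911) for Igf1, Csnk1a1 (0.932) and Tspan12 (0.928) for Igf2, Drap1 (0.853) and Ndufb9 (0.823) for Igfbp2, Lmcd1 (0.973) and Cavin3 (0.971) for Igfbp3, Glg1 (0.964) and Crtap (0.962) for Igfbp4, Cacna2d1 (0.981) and Ltbp1 (0.979) for Igfbp5, Fndc1 (0.970) and Lox (0.967) for Igfbp6, and Cxcl12 (0.985) and Meox2 (0.985) for Igfbp7.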

How the data were processed

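Single-cell libraries were made from injured tibialis anterior of mice, 1 library per group. The authors deposited UMI counts per gene and cell barcode, not normalized; the file headers name Cell Ranger 5.0.0, the submitters' processing notes list Cell Ranger 5.0.0 and 3.1.0 with mm10, and the study's methods give another version. The annotation release is not given in the sources used here, and gene positions are from a GRCm38 annotation. Barcodes needed 500 or more detected genes and a mitochondrial share below 10%. Scrublet's automatic threshold called 0 doublets, so the highest scores were removed at a rate of 0.8% per 1000 barcodes (1110, 1112 and 1433 barcodes). Cells were clustered in scanpy 1.11.5 (2000 variable genes without the 10 genes or the pathway list, 30 components, Leiden resolution 0.8), and classes were named from marker lists. Naming and removal conditions were revised after the cluster tables were seen, and sub-clusters with another class's markers were removed. Counts were summed per class and library.

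A ratio counted as past the threshold at 1.5-fold with at least 50 UMIs in both libraries together. Poisson, binomial (Clopper-Pearson) and conditional ratio intervals were exact at 95% and cover counting error only. With 1 library per group no test was made, and the ratio step was tested on simulated data. Named genes were the 10 genes, the 3 genes most like each ligand and binding protein, and pathway genes past 1.5-fold in FAP-like or macrophage/monocyte-like cells; others were named after their values were seen. The genes and lists were chosen with earlier results of these data known. Alternatives varied doublet calls, cell filters, resolution, scaling, averaging, gating, the UMI minimum and the fold. Python 3.11.15, numpy 2.4.6, scipy 1.17.1 and pandas 2.3.3 were used.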

Additional observations from a re-analysis of the deposited data

Results flagged for a closer look

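Igfbp3 lay on different sides of 1 in different classes, but several of these values did not hold under other settings or were at background level. Its age ratio was 0.407 in endothelial-like cells. It was 0.337 in pericyte/smooth muscle-like cells, where it was 0.621 without the top cell of each library and 1.244 at resolution 0.4, and 0.552 in macrophage/monocyte-like cells, at a level read as background. Tenocyte-like cells had 1.546, which was 0.753 as a mean of per-cell CPM. The treatment ratio of Igfbp3 was 0.528 in FAP-like cells and 3.042 in endothelial-like cells. In pericyte/smooth muscle-like cells it was 1.584, or 0.5255 with doublet calls kept, and the 2.538 of macrophage/monocyte-like cells is again at background level. Igfbp4 had an age ratio of 0.557 in tenocyte-like cells and 1.719 in pericyte/smooth muscle-like cells, the latter 1.224 with doublet calls kept. Each group was 1 library, so the difference was not tested in any of these cases.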

How the results depend on the processing

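No paired analysis was possible because each group was 1 library. Of 1198 values under 12 alternatives, 966 stayed in place, 204 moved and 28 turned direction; the cause was not tested. A ratio counts as turned only where its own interval leaves out 1, and as moved where the other value leaves that interval, so ratios whose interval includes 1 and that crossed 1 (Igf1 by age in FAP-like and MuSC/myoblast-like cells) are not among the 28. The limits of 2000 UMIs per cell, equal sub-cluster make-up, leaving out the Acta2- and Tagln-led cells and leaving out the top cell were chosen after seeing the data. By gate means cells taken by a UMI of Pdgfra without Ptprc (FAP) or of Csf1r without Pdgfra (macrophage). Depth limits the genes under 50 UMIs and the small classes.

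Igf1 in FAP-like cells by age was 0.9459 with doublet calls kept, 0.914 without Acta2- and Tagln-led cells, 1.014 with median-of-ratios size factors, 0.9563 as per-cell CPM and 0.9448 at equal make-up. By treatment it was 0.8585 with doublet calls kept, 0.7931 by gate, 0.8473 without Acta2- and Tagln-led cells and 0.8969 at equal make-up. In macrophage/monocyte-like cells Igf1 by age was 1.133 by gate and 1.058 at equal make-up, and by treatment 0.9453 under the stricter filter, 0.9308 with size factors and 0.9353 as per-cell CPM.

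Directions turned as follows. By gate, Igfbp6 by treatment in FAP-like cells was 1.005, and in macrophage/monocyte-like cells Igfbp5 was 0.5327 by age and 1.542 by treatment and Igfbp6 0.8743 by age. At equal make-up, Igf2r by age in macrophage/monocyte-like cells was 0.9846, and in endothelial-like cells Igf1 by age was 1.001 and Igfbp7 1.062 by age and 0.9284 by treatment. As per-cell CPM, age ratios were 1.023 for Igfbp3 and 1.027 for Igfbp4 in macrophage/monocyte-like, 0.7528 for Igfbp3 in tenocyte-like and 0.9287 for Igfbp5 in MuSC/myoblast-like cells, and treatment ratios of Igfbp5 were 1.088 there and 1.003 in pericyte/smooth muscle-like cells. With doublet calls kept, Igfbp7 in endothelial-like cells was 1.042 by age and 0.9808 by treatment, Igf2r by age and Igfbp3 by treatment in pericyte/smooth muscle-like cells were 1.003 and 0.5255, Igfbp7 by treatment in tenocyte-like cells was 0.9804 and Igf2r by treatment in dendritic-like cells 1.062. With size factors, Igfbp7 in endothelial-like cells was 1 by age and 0.993 by treatment. Under the stricter filter, Igf2r by age in pericyte/smooth muscle-like cells was 1.057, and in MuSC/myoblast-like cells Igfbp5 was 0.8008 by age and 1.32 by treatment and Igf2r 1.084 by treatment. At resolution 0.4, Igfbp3 by age and Igfbp5 by treatment in pericyte/smooth muscle-like cells were 1.244 and 1.071.

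Of the counts past the threshold, at 2-fold FAP-like cells had 2 by age and 0 by treatment, macrophage/monocyte-like cells 0 and 1, endothelial-like cells 3 and 1, and MuSC/myoblast-like cells 1 and 1. In brackets is the share of all genes past 1.5-fold under the same setting. At equal make-up FAP-like cells had 1 by age (8.53%) and 1 by treatment (5.36%) and endothelial-like cells 1 by treatment (6.74%). As per-cell CPM, FAP-like cells had 1 (9.81%) and endothelial-like cells 2 (14.9%) by treatment, and macrophage/monocyte-like cells 4 by age (13.5%). Macrophage/monocyte-like cells had by treatment 1 with doublet calls kept (8.7%), 1 at resolution 1.6 (8.46%) and 5 by gate (11.1%). MuSC/myoblast-like cells had by age 1 with doublet calls kept (9.02%) and 4 under the stricter filter (11.8%).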
